A study of Danio rerio with 4 samples.

Results

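The 44 Hox genes of the deposited table, of 24235 genes in all, were described by cluster and paralogue group in whole zebrafish embryos at the 6-somite stage. A gene was a member where its symbol was hox, a cluster letter, a number and an optional copy letter. Total RNA of wild-type AB embryos (2 libraries) was compared with that of npas4l bns297/bns297 embryos (2 libraries), which carry the bns297 allele on both chromosomes and are called mutants below. npas4l encodes a bHLH-PAS transcription factor without which few vessel and blood cells develop. The number of embryos pooled per library is not stated in the labels, so p-values measure only the spread between these libraries, which may be technical.

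Hox genes encode homeodomain transcription factors that give cells their position along the head-to-tail axis. They lie in clusters in which gene order matches the order of expression along the axis, so low-numbered paralogue groups act in the hindbrain and high-numbered groups in the trunk and tail, where they are also switched on later. Teleost fish duplicated their genome, and zebrafish keep 7 Hox clusters, named by letter and copy (hoxaa, hoxab, hoxba, hoxbb, hoxca, hoxcb and hoxda). Hox proteins bind DNA together with Pbx and Meis cofactors, and their genes are activated by retinoic acid, Cdx factors and Wnt and Fgf signals.

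A normalised value is the deposited number for a gene and library, a count per gene multiplied by a library factor and then rounded. From the whole numbers that the scaling skipped or doubled, the depth in genes was put at 7333000 and 9023000 reads for the wild-type libraries, replicate 1 first, and at 8378000 and 7208000 for the mutant ones. Mutant replicate 2 stood apart. Only 299 genes had a value of 0 there, while the other libraries had 2444 to 3000 such genes. Of the 13659 genes with a mean value under 50, it was the highest library in 59.2%. The Hox genes took 0.0879% and 0.0853% of the summed values in the wild-type libraries, and 0.0839% and 0.0886% in the mutant libraries, replicate 1 first here and below. The Hox share of the 2 groups overlapped.

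Genes listed as markers of regions along the head-to-tail axis were present in all libraries. A listed gene need not be limited to its region, so the sums do not measure Hox-expressing tissue alone. The summed value of 4 hindbrain genes (egr2b, mafba, epha4a and hnf1ba) was 2738 and 2884 in wild-type embryos, 2990 and 2496 in mutant embryos. That of 5 tailbud and posterior mesoderm genes was 3365 and 3751 in wild-type embryos, 3467 and 2973 in mutant embryos, and that of 7 spinal cord and neural plate genes was 3437 and 3578 against 3741 and 3217. Genes of the forebrain and midbrain, regions that hold no Hox expression, summed to 1844 and 1799 in wild type and to 1801 and 1696 in mutants. This sum includes pax2a, which the pronephros list holds too and which was at 576 and 440 in wild-type embryos, 437 and 504 in mutant embryos. In all 4 lists mutant replicate 2 was the lowest library, as it was in the sum over all genes, 7272902 against 7984958 to 8237748. None of the tested genes in these lists, nor in those for somites, lateral plate mesoderm, pronephros and neural crest, passed the test defined below. Of all genes tested, 0.048% passed. Mutant replicate 2 was also the lowest library in the summed somite, lateral plate mesoderm and neural crest lists. In the pronephros list it was not, with 874 and 703 in wild-type embryos, 776 and 819 in mutant embryos. In whole-embryo RNA, fewer cells of a region and less RNA per cell cannot be told apart.

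The members fell into all 13 paralogue groups. Only rows that matched the naming rule were counted, so a Hox gene without such a row is missing from its group and cluster. The hoxba cluster held 10 of them over 102 kb of chromosome 3 (23538719 to 23640594, GRCz10, plus strand), and hoxca held 9 on chromosome 23. hoxda held 7 on chromosome 9, hoxaa 5 on chromosome 19, hoxab 5 on chromosome 16, hoxbb 4 on chromosome 12 and hoxcb 4 on chromosome 11. Within a cluster all members lay on 1 strand, except in hoxcb, where hoxc13b was annotated on the plus strand and the other 3 on the minus strand. The row named hoxa4a carried the description Hox-A3a and a span of 25.3 kb that enclosed hoxa5a, so its value may hold reads of more than 1 Hox gene.

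**Figure D1:**
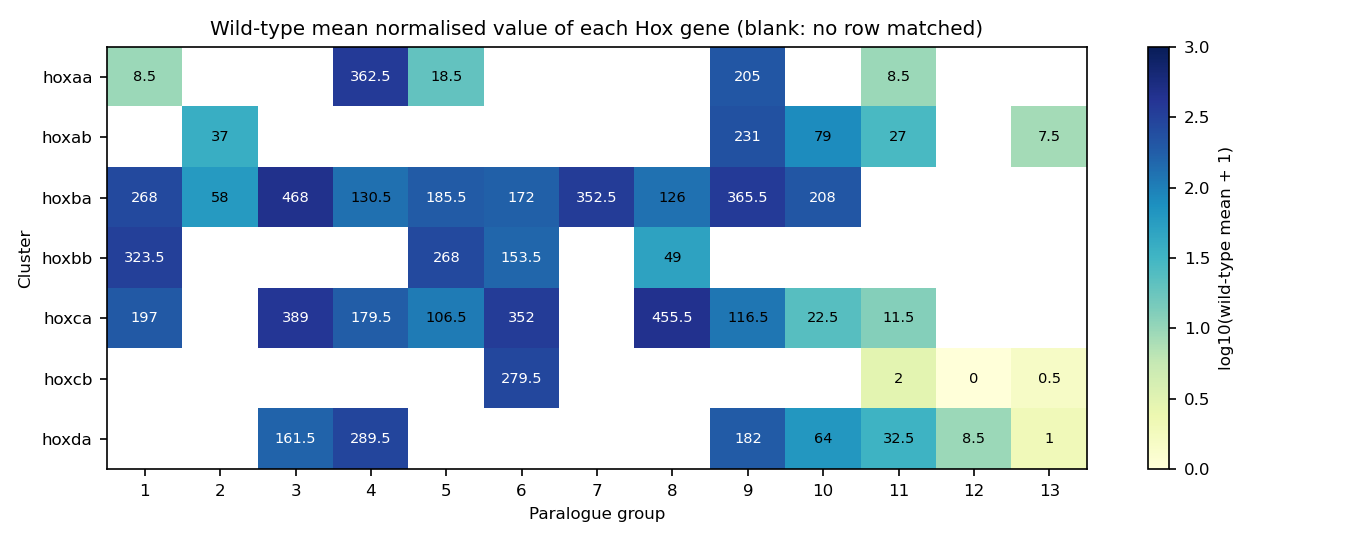
Mean normalised value of each Hox gene in the 2 wild-type libraries, by cluster (rows) and paralogue group (columns), with the colour on a log10 scale. Values reached 468 in group 3 and 455.5 in group 8, while in groups 11 to 13 no gene was above 32.5.

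Summed over clusters, paralogue group 9 had the largest value in wild type, 1100 ± 72.1 (mean ± SD, n = 2 here and below). Group 3 followed with 1018.5 ± 31.8, group 4 with 962 ± 28.3 and group 6 with 957 ± 22.6. The wild-type libraries of groups 4 and 6 overlapped, so these groups could not be ordered, whereas both libraries of group 9 lay above those of group 3 and both of group 3 above those of group 4. A sum grows with the number and length of the genes in a group, so it counts reads and not molecules. The hoxa4a row, described as Hox-A3a, was counted in group 4 by its symbol, with 342 and 383 in wild-type embryos. Counted in group 3 it would put that group above group 9, so the order of groups 3, 4, 6 and 9 rests on this placement. The 3 rows of group 3, hoxb3a, hoxc3a and hoxd3a, have spans of 51.9, 62.2 and 22.5 kb that enclose other Hox genes. Their values may hold reads of those genes too, so the order may also rest on how shared reads were handled.

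Group 1 stood at 797 ± 49.5, group 8 at 630.5 ± 78.5, group 5 at 578.5 ± 7.78, group 10 at 373.5 ± 74.2 and group 7, with the single member hoxb7a, at 352.5 ± 67.2. Group 2, with hoxa2b and hoxb2a, was the lowest of groups 1 to 4 at 95 ± 22.6. Beyond group 10 the sums dropped to 81.5 ± 4.95 in group 11, 8.5 ± 2.12 in group 12 and 9 ± 8.49 in group 13. In mutants these 3 groups summed to 70 and 124, 10 and 33, and 11 and 25, with mutant replicate 2 the highest of the 4 libraries in each. Groups 1 to 4 together held 41.3% of the summed Hox values of all libraries, groups 5 to 8 held 35.6% and groups 9 to 13, with 19 of the 44 genes, held 23.1%. By cluster, hoxba held 32.7% and hoxca 26.3%, against 4.14% for hoxcb and 5.58% for hoxab.

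**Figure D2:**
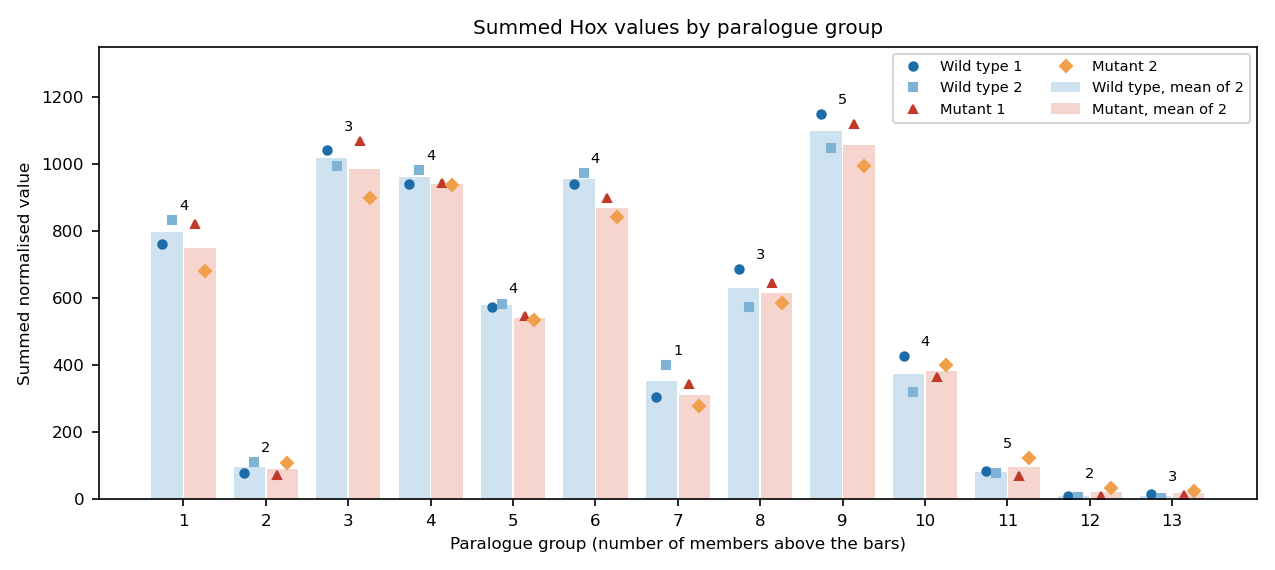
Summed normalised value of each paralogue group in each library (points) and the mean of the 2 libraries of a genotype (bars), with the number of member genes above. With the hoxa4a row counted in group 4, group 9 has the largest mean in both genotypes, 1100 and 1057.5. The wild-type means of 8.5 in group 12 and 9 in group 13 stand beside mutant means of 21.5 and 18, with mutant replicate 2 at 33 and 25.

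Levels of single genes were compared as the normalised value per kilobase of the annotated gene span. The table gives no transcript length, so this was done for the 37 members with a span under 6 kb, and it understates a gene with a long intron. In wild type hoxb1b, a group 1 gene of the early hindbrain, led with 191 ± 36.3 per kb. hoxc8a, a trunk gene, stood at 186 ± 28.6 and hoxc6a, a gene of the anterior trunk, at 153 ± 1.23, so hoxb1b and hoxc8a did not differ beyond their spread. Next came hoxb5b at 129 ± 4.77 per kb and hoxb1a at 119 ± 1.26.

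hoxd4a, hoxc4a, hoxd9a and hoxa9b lay between 102 and 108 per kb with SDs of 5.01 to 7.49, and could not be ordered among themselves. These leading genes came from groups 1, 4, 5, 6, 8 and 9 and from the hoxab, hoxba, hoxbb, hoxca and hoxda clusters. The 7 members with longer spans, hoxa4a, hoxb3a, hoxb4a, hoxc1a, hoxc3a, hoxc6b and hoxd3a, were left out. They include all of group 3 and the members with the highest values in hoxaa and hoxcb. Group 3 could therefore not appear among the leading genes. In mutants the same 4 genes, hoxc8a, hoxb1b, hoxc6a and hoxb5b, held the top 4 ranks, at 186 ± 19.0, 176 ± 33.4, 138 ± 12.9 and 133 ± 5.79 per kb. At the other end, every compact member of groups 11 to 13 was at or below 14.3 per kb in wild type. hoxa1a, hoxc10a and hoxa5a, of groups 1, 10 and 5, were in that range too, at 5.20, 6.68 and 13.3 per kb.

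Among the group 1 genes, hoxb1a, which specifies rhombomere 4 of the hindbrain, was the steadiest member, with normalised values of 270 and 266 in wild-type embryos, 269 and 264 in mutant embryos. hoxb1b stood at 280 and 367 in wild-type embryos, 338 and 258 in mutant embryos, so its groups overlapped. hoxa1a was weak, at 9 and 8 in wild-type embryos, 8 and 5 in mutant embryos.

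In group 2, hoxb2a was at 44 and 72 in wild-type embryos, 51 and 48 in mutant embryos. hoxa2b, which specifies the skeleton of the second pharyngeal arch together with hoxb2a, was at 35 and 39 in wild-type embryos, 21 and 61 in mutant embryos. The mutant libraries lay on either side of both wild-type libraries of hoxa2b.

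In group 3, hoxb3a, a gene of the posterior hindbrain, was at 466 and 470 in wild-type embryos, 435 and 395 in mutant embryos. In group 4, the hoxa4a row stood at 342 and 383 in wild-type embryos, 311 and 337 in mutant embryos. For both genes the 2 mutant libraries were below the 2 wild-type libraries.

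Central genes showed values of the same order. hoxb5b, which in zebrafish acts downstream of retinoic acid to limit the size of the heart field, was at 261 and 275 in wild-type embryos, 267 and 284 in mutant embryos. The copy hoxb5a was at 191 and 180 in wild-type embryos, 166 and 151 in mutant embryos. The groups of hoxb5b overlapped and those of hoxb5a did not.

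hoxc6a was at 354 and 350 in wild-type embryos, 297 and 339 in mutant embryos. hoxb7a was at 305 and 400 in wild-type embryos, 344 and 279 in mutant embryos. hoxc8a, with the highest mean value of all members, was at 505 and 406 in wild-type embryos, 488 and 422 in mutant embryos, so wild-type replicate 1 and mutant replicate 1 were high together.

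Among the posterior genes, wild-type replicate 1 was above wild-type replicate 2 in hoxb9a (428 against 303) and in hoxb10a (265 against 151). The mutant libraries, at 421 and 358 for hoxb9a and at 214 and 209 for hoxb10a, lay within the wild-type range of both genes. hoxd11a was at 29 and 36 in wild-type embryos, 29 and 50 in mutant embryos. hoxd12a was at 10 and 7 in wild-type embryos, 9 and 22 in mutant embryos, and hoxa13b at 12 and 3 against 8 and 9. Genes of group 13 act in the tail and the fin tips. At this stage the 3 that matched the naming rule all had a mean under 10.

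4 members were listed at 0 in at least 1 library. These were hoxc11b, hoxc12b, hoxc13b and hoxd13a, and 3 of them are the posterior members of hoxcb. hoxc12b was at 0 and 0 in wild-type embryos, 1 and 11 in mutant embryos, and hoxc13b at 1 and 0 against 0 and 11. Mutant replicate 2 alone carried the values of 11 in both genes. Over the 15 members with a mean under 50 it was the highest library in 8 (53.3%), beside the 59.2% of all genes at that level. Over the 29 members with a mean of at least 50 it was the highest in 5 (17.2%), against 13.6% of all genes.

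**Figure D3:**
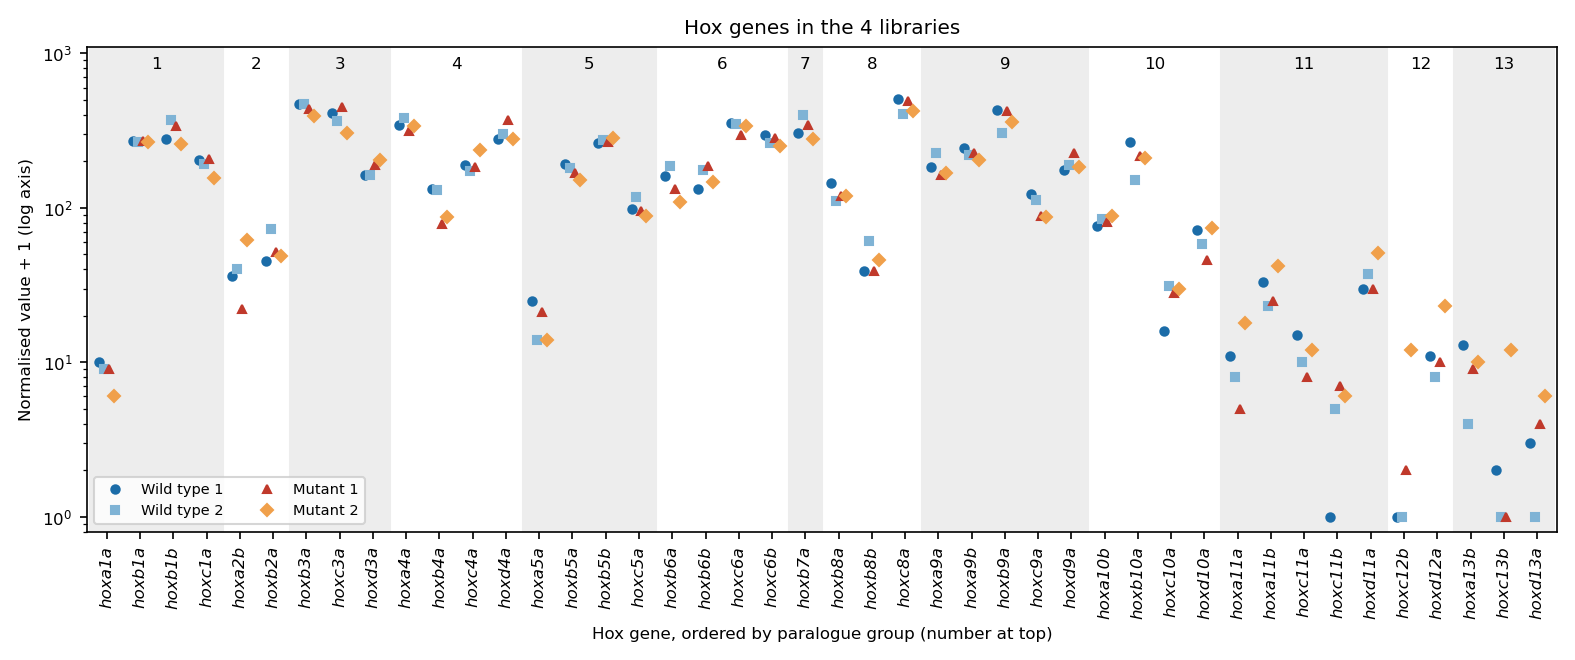
Normalised value plus 1 of all 44 Hox genes in the 4 libraries on a log axis, ordered by paralogue group. The points of 1 gene mostly lie close together above 100, as for hoxb1a at 264 to 270, and spread below 50, where mutant replicate 2 is often highest, as for hoxd12a at 22.

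Mutants and wild type were compared by limma-trend on log2(value + 1), fitted over the 16653 genes whose mean reached 10, with Benjamini-Hochberg adjustment over all of them. Of the 44 members, 37 passed this filter. The 7 that did not were hoxa1a and, from groups 11 to 13, hoxa11a, hoxc11b, hoxc12b, hoxa13b, hoxc13b and hoxd13a. None of the 37 tested Hox genes passed at an adjusted p under 0.05, and limma-voom also called 0. Over all genes tested 0.048% passed, so a count of 0 is close to the background. At an unadjusted p under 0.05 limma held 2 Hox genes, both lower in mutants, where 3.75% of all genes reached this level, 1.91% lower and 1.84% higher.

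The 2 genes were hoxb4a and hoxb6a, which lie on either side of hoxb5a in the hoxba cluster. hoxb4a (ENSDARG00000013533, chromosome 3, 23580291 to 23593434), a gene of the posterior hindbrain and spinal cord whose mouse and human counterpart expands blood stem cells when overexpressed, was at 132 and 129 in wild-type embryos, 77 and 86 in mutant embryos. Both mutant libraries were well below both wild-type libraries. Its means were 130.5 ± 2.12 and 81.5 ± 6.36, a log2 fold change of -0.67 ± 0.25 (SE) with a limma adjusted p of 1 and an unadjusted p of 0.0082. It was negative in all 13 alternative analyses, between -0.75 and -0.60. The alternatives reuse the libraries by which this gene and hoxb6a were picked, so a constant sign is no independent support. Where the groups do not overlap, leaving out 1 library cannot turn the sign.

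hoxb6a (ENSDARG00000010630, chromosome 3, 23573156 to 23575198) was at 159 and 185 in wild-type embryos, 132 and 108 in mutant embryos. Its means of 172 ± 18.4 and 120 ± 17.0 gave a log2 fold change of -0.52 ± 0.22 with a limma adjusted p of 1 and an unadjusted p of 0.0201. Without mutant replicate 2 it was -0.38, and over all alternatives it lay between -0.66 and -0.38, with a lowest adjusted p of 0.268.

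Both genes lie inside the 51.9 kb span annotated for hoxb3a, as does hoxb5a, and an antisense RNA (CR751227.2) overlaps all 4 as well as hoxb1a and hoxb2a. In these 4 of the 10 members of hoxba both mutant libraries were below both wild-type libraries, as in 16.1% of all genes tested. The handling of reads shared by overlapping genes and of strand is not stated in the labels or notes, so their values may not be independent. CR751227.2 itself was at 41 and 17 in wild-type embryos, 33 and 25 in mutant embryos, so its groups overlapped. In hoxb1a and hoxb2a, which it also overlaps, the groups overlapped, with log2 fold changes of -0.0081 and -0.18. For the members that CR751227.2 does not overlap, the log2 fold changes were -0.17 ± 0.17 for hoxb7a and -0.081 ± 0.23 for hoxb8a. They were 0.11 ± 0.17 for hoxb9a and 0.080 ± 0.20 for hoxb10a. The change of hoxb3a, -0.17 ± 0.16, was close to those of hoxb2a and hoxb7a, although its groups did not overlap. That of hoxb5a was -0.23 ± 0.20.

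Of the other members with a mean of at least 50, the next lowest were hoxc9a and hoxa9a. Mouse Hoxa9 is known for its role in blood progenitors. hoxc9a, a trunk gene, was at 121 and 112 in wild-type embryos, 88 and 86 in mutant embryos, giving a log2 fold change of -0.42 ± 0.25. hoxa9a was at 184 and 226 in wild-type embryos, 162 and 166 in mutant embryos, giving a log2 fold change of -0.31 ± 0.20. The mutant libraries of both genes lay below the wild-type libraries and neither gene passed the test.

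In the other direction the 5 members with the largest log2 fold changes at a mean of at least 50 were hoxd3a, hoxc4a, hoxd4a, hoxd9a and hoxb6b. hoxd3a was at 162 and 161 in wild-type embryos, 188 and 202 in mutant embryos, giving a log2 fold change of 0.27 ± 0.20, and its groups did not overlap. hoxc4a stood at 188 and 171 in wild-type embryos, 184 and 236 in mutant embryos (0.22 ± 0.20). hoxd4a, a gene of the posterior hindbrain, was at 280 and 299 against 371 and 279 (0.15 ± 0.17), hoxd9a at 175 and 189 against 224 and 182 (0.15 ± 0.20), and hoxb6b at 132 and 175 against 186 and 146 (0.12 ± 0.21). In these 4 genes the groups overlapped.

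Over the 37 tested members the median log2 fold change was -0.081, beside -0.018 over all genes tested. Of these members 14 were above 0 and 23 (62.2%) below, where 52.7% of all genes were below. At a mean of at least 50 the median was -0.11 for the Hox genes (29 genes) and -0.054 for all genes. Set against wild type singly, mutant replicate 1 gave -0.022 and mutant replicate 2 gave -0.081, and without wild-type replicate 1 the median was -0.032. Groups 1 to 4 had a median of -0.098 (12 genes), which was 0.0090 without wild-type replicate 2 and 0.021 without mutant replicate 2. Groups 5 to 8 had a median of -0.14 (12 genes), which was -0.051 without mutant replicate 2 and -0.073 with limma-voom. Groups 9 to 13 had a median of 0.088 (13 genes), which was -0.14 without wild-type replicate 2 and -0.042 without mutant replicate 2. For groups 9 to 13, mutant replicate 1 gave -0.042 and mutant replicate 2 gave 0.063, and posterior genes also had the largest gap between the wild-type libraries, a median of -0.15 for replicate 2 minus replicate 1.

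By cluster, the medians ran from -0.17 in hoxba (10 genes) and -0.15 in hoxca (9 genes) to 0.19 in hoxda (6 genes). Set against wild type singly, mutant replicates 1 and 2 gave -0.093 and -0.24 in hoxba, 0.037 and -0.10 in hoxca and 0.16 and 0.26 in hoxda, so the sign for hoxca turned with 1 library. In hoxda 5 of the 6 tested genes were above 0, with hoxd10a at -0.15 ± 0.33 as the exception. Of these, hoxd12a, with a wild-type mean of 8.5, reached the filter only through mutant replicate 2, so its sign is no support. hoxd11a was at -0.15 without mutant replicate 2, and hoxd4a at -0.052 without mutant replicate 1. hoxd3a and hoxd9a stayed above 0 in all 13 alternatives. The summed hoxda values were 729 and 749 in wild-type embryos, 869 and 813 in mutant embryos. Those of hoxba were 2403 and 2265 in wild-type embryos, 2227 and 2016 in mutant embryos. The sums of both clusters did not overlap between the groups, in opposite directions, and the ratios of the means were 1.14 and 0.909. hoxaa was also without overlap, with 569 and 637 against 505 and 538 and a ratio of 0.865. The sums of hoxab, hoxbb, hoxca and hoxcb overlapped. Of all genes tested, 16.1% were lower in mutants without overlap and 13.3% were higher. No such share was taken for sums, and differences between cluster sums were not tested. The sums were also not divided by the library totals, of which mutant replicate 2 had the lowest. Whether a cluster overlaps between the groups may therefore depend on the scaling.

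In 9 of the 37 tested members (24.3%) both mutant libraries were below both wild-type libraries, where 16.1% of all genes tested were. This share, here and above, was not matched for level, and the 9 members had means of 98.75 to 441.5. Against wild type, the median of mutant replicate 2 was -0.12 over all genes with a mean of at least 50. Over all genes tested it was -0.039, so the 2 shares are not directly comparable. In 1 member, hoxd3a, both were above, where 13.3% of all genes were. Without mutant replicate 2 the count was 12 lower, against 30.8% of all genes, and 6 higher, against 32.3%. In 30 of the 37 members (81.1%) the larger gap within a group exceeded the difference between the groups on the log2 scale, beside 81.0% of all genes tested.

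The intervals, which are not adjusted for the number of genes, limit how large a change could have been missed only as far as their SEs hold. An interval within 2-fold does not mean that a 2-fold change would have passed the adjusted test. Of the 29 members with a mean of at least 50, 28 had a 95% interval within a 2-fold change in either direction, as did 93.3% of all genes at that level. The exception was hoxb4a, whose interval ran from -1.17 to -0.18 on the log2 scale. Among the weak members hoxc11a, hoxd12a and hoxa5a had SEs of 1.08, 1.01 and 0.74, so that changes of 2-fold were not detectable there. The intervals of hoxc10a, hoxa11b and hoxd11a also reached beyond 2-fold, up to 1.51, 1.25 and 1.12 on the log2 scale. Over all 37 tested members 30 (81.1%) had an interval within 2-fold, beside 62.1% of all genes tested. Each SE was drawn by limma toward that of genes with like values, so it reflects a gene's own libraries little. hoxa2b counted as within 2-fold, from -0.93 to 0.85, although its mutant libraries were at 21 and 61.

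**Figure D4:**
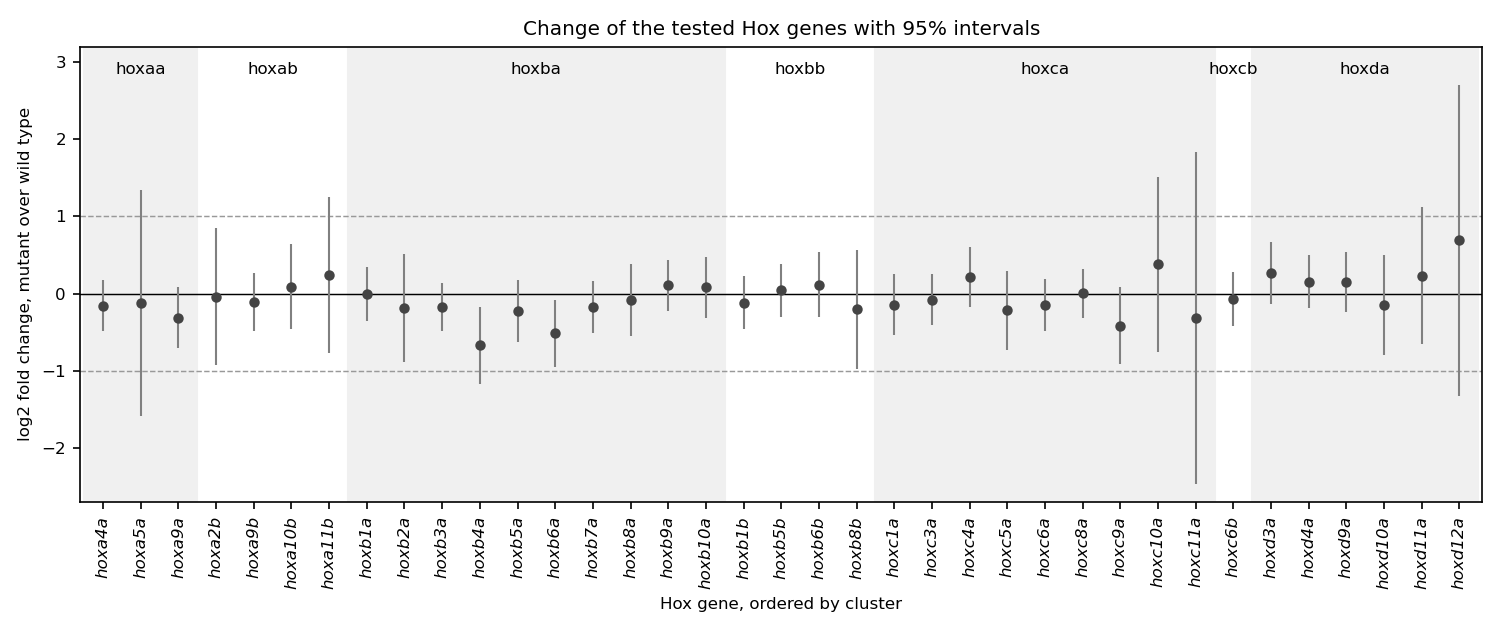
Log2 fold change of mutants over wild type for the 37 tested Hox genes with 95% intervals from limma, grouped by cluster, with dashed lines at 2-fold. hoxb4a at -0.67 and hoxb6a at -0.52 have intervals below 0, none of the adjusted p-values passed, and the intervals of hoxc11a and hoxd12a are wide.

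Zebrafish kept both duplicated copies of 6 genes that passed the filter, and the ratio of copy a to copy b was taken within each library. For hoxb6 it was 1.205 and 1.06 in wild-type embryos, 0.710 and 0.740 in mutant embryos, and the groups did not overlap. For hoxb5 it was 0.732 and 0.655 in wild-type embryos, 0.622 and 0.532 in mutant embryos. In both pairs the copy in hoxba was lower in mutants. The mean of the hoxbb copy was slightly higher, at 166 against 153.5 for hoxb6b and 275.5 against 268 for hoxb5b. The hoxb6 ratio reuses the values of hoxb6a given above. Single genes were lower in mutants without overlap in 16.1% of all genes tested. No such share was taken for ratios, and they were not tested.

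The ratio of hoxb1a to hoxb1b was 0.964 and 0.725 in wild-type embryos, 0.796 and 1.02 in mutant embryos. That of hoxa9a to hoxa9b was 0.757 and 1.03 against 0.723 and 0.814. hoxc6a to hoxc6b stood at 1.196 and 1.33 in wild-type embryos, 1.05 and 1.36 in mutant embryos, and hoxb8a to hoxb8b at 3.76 and 1.82 against 3.11 and 2.62. In these 4 pairs the ratios of wild type and mutants overlapped.

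In 28 of the 44 members a gene on the opposite strand overlapped the annotated span, and in 14 another Hox gene did. Of the non-coding rows inside the clusters, those with the highest values were BX005254.4, antisense in hoxca beside hoxc9a, at 170 and 118 in wild-type embryos, 143 and 104 in mutant embryos, and BX001014.2, antisense in hoxbb beside hoxb8b, at 106 and 124 against 126 and 100. mir-10 genes lie beside the group 4 genes in vertebrate Hox clusters, and their 4 rows here (dre-mir-10a, dre-mir-10b-1, dre-mir-10b-2 and dre-mir-10c) stayed between 0 and 19. These rows are short annotated spans, so their values are no measure of the mature mir-10 RNAs. dre-mir-10c lies inside the spans of hoxb3a and hoxb4a, dre-mir-10b-2 inside that of hoxc3a and dre-mir-10b-1 inside that of hoxd3a. tax1bp1b spans hoxab on the other strand with values of 714 to 862, and hnrnpa1a spans hoxcb on the strand of 3 of its members with 4111 to 5045, so values of weak genes there may hold reads of these genes.

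Hox cofactors and upstream regulators were counted with the same fit. Of 13 tested Pbx and Meis family cofactors 0 passed in either direction, and their median log2 fold change was -0.017. pknox1.2, a Meis-related partner, was at 41 and 40 in wild-type embryos, 48 and 80 in mutant embryos (0.60 ± 0.36), and meis1b at 1967 and 2204 against 1933 and 1689 (-0.20 ± 0.14). In both genes mutant replicate 2 was the library farthest from wild type.

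Of 22 tested genes of the retinoic acid pathway 0 passed, with a median of -0.062. The receptor gene rxrbb was at 89 and 106 in wild-type embryos, 138 and 110 in mutant embryos (0.34 ± 0.24), and cyp26a1, which degrades retinoic acid, at 400 and 327 against 336 and 291 (-0.21 ± 0.17). Of 7 tested Cdx factors and posterior regulators 0 passed, with a median of -0.0099. The transcription factor gene sall4 stood at 2864 and 2666 in wild-type embryos, 2529 and 2241 in mutant embryos (-0.21 ± 0.14), and ta, the Brachyury gene of notochord and tailbud, at 517 and 567 against 483 and 439 (-0.23 ± 0.15).

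Of 24 tested Polycomb and Trithorax genes, which keep Hox genes silent or active, 0 passed, with a median of -0.063. The log2 fold change of the Polycomb gene bmi1b was 0.67 ± 0.35, and that of rnf2 was -0.25 ± 0.16. Of 10 tested entries for genes at the cluster ends, where lnpk and lnpb are the same gene entered under both names, 0 passed. Their median was 0.11, and those with the smallest p were lnpa (-0.41 ± 0.21) and calcoco1b. calcoco1b was at 2 and 0 in wild-type embryos, 5 and 37 in mutant embryos, so only mutant replicate 2 brought its mean to the filter. By its coordinates calcoco1b lay inside hoxcb, between hoxc12b and hoxc13b. The counts of 0 in these 5 lists stand beside 0.048% of all genes tested that passed. None of the genes in the lists had an unadjusted p under 0.05 by limma, where 3.75% of all genes tested did. limma-voom called 0 of them, and 11 of all 16653 genes tested. Without mutant replicate 1 there were 3 calls, meis1b, sall4 and kdm6ba, all lower and at log2 fold changes of -0.30, -0.30 and -0.22, in a fit that called 274 genes in all.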

How the data were processed

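Total RNA of whole embryos was sequenced in 4 libraries. The submitters' processing notes name STAR 2.4.0a as a tool, with featureCounts 1.4.5-p1 (Subread), DESeq2 and FastQC, and the builds GRCz10 and danRer10, without settings. The deposited values are a score. They behave as counts per gene multiplied by a library factor and then rounded, which was read from the whole numbers that occur. Because they are not raw counts, limma-trend (limma 3.58.1, R 4.3.3) was run on log2(value + 1) of genes with a mean of at least 10, with genotype as the only term and 83.6 prior degrees of freedom. Medians, sums and ratios are descriptions. Tables were handled with Python 3.11.15 and pandas 2.3.3. The code was tested on simulated data.

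The members, lists and tests were chosen with earlier results of these data known. Values are given per library for the top member of each paralogue group and for members with an unadjusted p under 0.05. They are also given for the 5 largest changes in each direction at a mean of at least 50. Tested a/b pairs are given as ratios per library, without the values of hoxa9b, hoxb8a, hoxb8b and hoxc6b. From each pathway list the 2 genes with the smallest p are named. Other members named, the 6 kb limit and the marker sums were chosen after values were seen. Of 89 pathway symbols listed, those matched by symbol, by the current symbol of the gene ID or by synonym gave 80 distinct genes. lnpk and lnpb matched the same gene. Coordinates come from the deposited table. The mutated gene was not analysed here.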

Additional observations from a re-analysis of the deposited data

How the results depend on the processing

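Across 13 alternatives 0 Hox genes passed in each, with a lowest adjusted p of 0.268. Of the 37 tested members, 12 stayed below 0 and 5 above 0 wherever they were tested, and the others changed sign without a call. All alternatives reuse the same libraries, so a constant sign is no independent support. The median Hox log2 fold change was -0.081 in the main analysis, -0.054 with no filter, -0.11 with a mean of at least 50, -0.044 with limma-voom, -0.027 scaled without mitochondrial and ribosomal RNA and -0.051 with quantile normalization, and -0.086 to -0.022 leaving out each library in turn. The median over all genes was -0.018 in the main analysis and moved in the same direction as the Hox median with no filter (0.066), a mean of at least 50 (-0.054), limma-voom (0.036), the rescaling (0.037) and quantile normalization (-0.0053); leaving out each library gave -0.041 to 0.013. Over all genes 8 passed in the main analysis, 0 by limma without a mean-variance trend (673 at an unadjusted p under 0.05, and 11 by limma-voom) and 15 scaled without mitochondrial and ribosomal RNA, 2 higher and 13 lower. Leaving out 1 library gave 6 to 274 genes in all and 0 to 3 in the pathway lists; 274 came without mutant replicate 1 and 22 without mutant replicate 2. In these fits genes tied in the remaining pair were left out, and the single library left in a group was taken to vary as the complete pair does. With the replicate block 9 genes, 0 Hox genes and 0 pathway genes passed. The deviations of same-numbered libraries from their group means had a correlation of 0.0090 over all genes tested and of -0.078 over the Hox genes, which are not independent replicates, so the numbers were not taken to pair the libraries. Weak members, with values under 50, limit the comparison in groups 11 to 13.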
